A study of Homo sapiens with 8 samples.

Results

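The 2 independent experiments of the series were compared with each other, day by day, to describe the state of one fibroblast line before and during its response to senescent cells. All 8 libraries of the series entered the comparison, 4 from each experiment, and they were assigned by the replicate number in their titles, so that experiment 1 and experiment 2 stand for replicates 1 and 2. The recipient cells were IMR90, primary human fibroblasts of the lung, and they received no 4-OHT treatment of their own in the labels. For 3 days they were fed medium taken from IMR90-ER:RAS donor fibroblasts at day 0, 4, 7 or 10 of senescence induction with 4-OHT (D0, D4, D7 and D10). ER:RAS is a RAS oncogene fused to a hormone-binding domain that 4-OHT switches on, and the donor cells carried it in all 4 groups, so that D0 medium came from donors whose oncogene had not yet been induced. Each day is 1 library per experiment. Nothing beyond the words "independent experiments" states what differed between them: the passage of the cells, the batch of medium, the harvest and the date of library preparation cannot be told apart.

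Cultured fibroblasts respond to growth factors, serum, stress and handling within minutes through immediate-early genes, whose transcription needs no new protein and whose products, such as FOS, JUN and EGR1, are themselves transcription factors. Senescent fibroblasts secrete a mixture of cytokines, chemokines, growth factors and proteases, the senescence-associated secretory phenotype (SASP), and neighbouring fibroblasts read it through cytokine receptors and NF-κB, and can in turn express the same ligands. These systems share parts: AP-1 factors of the FOS and JUN families and NF-κB bind many of the same inflammatory genes.

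The libraries held between 11708193 and 13395912 counts, and experiment 2 had a count for more genes on every day (20254 to 20813, against 19385 to 19802 in experiment 1). All 10 fibroblast markers were expressed, with a summed level of 41814 to 55018 CPM (counts per 1000000) in experiment 1 and 22973 to 49240 CPM in experiment 2, where the lowest value was that of D10. The marker sums of this paragraph are per library total without TMM scaling, whereas the CPM of single genes below are after TMM scaling. Markers of epithelial cells (47.3 to 93.1 CPM in experiment 1, 50.3 to 81.9 CPM in experiment 2), endothelial cells (41.4 to 115 CPM and 54.0 to 84.8 CPM) and leukocytes (3.08 to 3.65 CPM and 1.59 to 3.24 CPM) stayed low, and 2 of 7, 3 of 7 and 2 of 5 of them never passed 3 counts. ESR1, the gene of the estrogen receptor, had 0 to 4 counts in a library. The share of the 13 mitochondrially encoded genes was 1.81% in both D0 libraries and 0.906% at D10 of experiment 2, against 2.04% at D10 of experiment 1.

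Of 27696 genes in the table, 13798 had enough counts to be tested. In edgeR's quasi-likelihood test with the day as a block, 2571 genes (18.6%) were higher and 2234 genes (16.2%) lower in experiment 2 at an adjusted p under 0.05, and the median log2 difference was 0.01. The fit rests on 4 pairs of libraries. With 1 library of a pair left out, its partner is taken up by the term of its day, so the pair as a whole drops out of the estimate. Leaving out 1 library gave between 2121 and 5602 calls, with 2281 and 2121 calls without the D0 library of experiment 1 or 2, and 3005 and 2992 without that of D4. DESeq2 called 4376 genes, and without the D10 pair edgeR called 5517.

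A difference of at least 2-fold in the same direction on each of the 4 days, on log2 CPM with a prior count of 2, was seen in 223 genes that were higher in experiment 2 (1.62% of the genes tested) and in 20 that were lower (0.145%). All 243 also passed the edgeR test, which used the same libraries. Without D10, 372 genes met the limit on the other 3 days. The kinase gene TTK (smallest daily log2 difference 1.0004) and CDH15 (−1.004) stood just inside the 2-fold limit, and SMC3 (0.997) and HIST1H1C (−0.965) just outside it. The 223 genes held 162 protein-coding genes (73.0%, against 88.6% of all genes tested), 16 lincRNAs, 10 sense-intronic transcripts and 9 antisense genes.

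The immediate-early genes FOS and FOSB led the genes that were higher in experiment 2, and they were near silent in 3 of the 4 libraries of experiment 1. FOS (ENSG00000170345.9, chr14:75278774-75282230), which encodes a subunit of the AP-1 transcription factor, had 0.587, 0.854, 0.764 and 2.45 CPM at D0, D4, D7 and D10 of experiment 1. In experiment 2 it had 265, 245, 339 and 204 CPM. The lowest library of experiment 2 was thus far above the highest of experiment 1, which was that of D10, and the log2 difference was 7.81 ± 0.37 (SE, 4 pairs; edgeR adjusted p = 5.39e-05). FOSB (ENSG00000125740.13, chr19:45467995-45475179), a second AP-1 subunit, followed the same order with 1.34, 1.86, 1.99 and 4.43 CPM in experiment 1 and 124, 119, 196 and 142 CPM in experiment 2. Its log2 difference was 5.94 ± 0.26 (edgeR adjusted p = 5.39e-05). EGR1 (ENSG00000120738.7, chr5:138465490-138469315), a zinc-finger factor induced through serum response factor, had 41.6, 28.9, 31.9 and 38.6 CPM in experiment 1 and 418, 355, 469.7 and 774 CPM in experiment 2. Its log2 difference was 3.79 ± 0.18 (edgeR adjusted p = 5.39e-05). For these 3 genes every library of experiment 2 exceeded every library of experiment 1, which was so for 16.3% of all genes tested (and the reverse for 15.7%).

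The promoters of FOS, FOSB and EGR1 are shown because these genes carried the largest differences between the experiments. Each line gives the 250 bases before the RefSeq start site (GRCh38.p14, plus strand): chr14:75278578-75278827 for FOS, chr19:45467746-45467995 for FOSB and chr5:138465229-138465478 for EGR1. Capitals mark the core of the cyclic AMP response element, TGACGT or its complement ACGTCA, the TATA box TATAAA, and the CArG box, to which serum response factor binds.
FOS: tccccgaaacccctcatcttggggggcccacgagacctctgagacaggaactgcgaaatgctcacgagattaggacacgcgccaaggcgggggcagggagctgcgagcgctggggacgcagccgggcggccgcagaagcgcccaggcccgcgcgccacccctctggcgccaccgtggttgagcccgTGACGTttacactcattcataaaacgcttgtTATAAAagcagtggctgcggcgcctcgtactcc
FOSB: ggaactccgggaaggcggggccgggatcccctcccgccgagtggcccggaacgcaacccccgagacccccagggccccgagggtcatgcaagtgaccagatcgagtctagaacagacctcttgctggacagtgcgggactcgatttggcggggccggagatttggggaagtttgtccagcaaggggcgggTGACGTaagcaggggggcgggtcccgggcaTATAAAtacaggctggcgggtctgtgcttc
EGR1: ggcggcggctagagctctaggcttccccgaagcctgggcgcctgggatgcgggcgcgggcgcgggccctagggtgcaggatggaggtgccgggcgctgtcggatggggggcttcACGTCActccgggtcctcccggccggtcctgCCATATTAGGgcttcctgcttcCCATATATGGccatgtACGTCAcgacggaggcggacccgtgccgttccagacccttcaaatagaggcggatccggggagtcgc
FOS and FOSB each had 1 cyclic AMP response core and 1 TATA box in this window, and EGR1 had 2 cores and 2 CArG boxes. Searched on both strands in the 250 bases before the start, the core was present in 8 of the 17 immediate-early genes with a RefSeq entry here and in 7.10% of 35116 promoters. The CArG box was present in 2 of 17 genes and in 1.16% of promoters, and the TATA box, also searched on both strands, in 5 of 17 and 10.7%. A match describes letters only, and the libraries do not measure binding.

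The difference extended over most of the immediate-early and AP-1 list. Of its 21 tested genes 14 were higher and 1 was lower in experiment 2, with a median log2 difference of 1.13, against 18.6% higher, 16.2% lower and a median of 0.01 over all genes tested. The medians of the D0, D4, D7 and D10 pairs were 0.98, 1.09, 1.39 and 1.26, so that the list already stood apart in the D0 pair. With 1 library left out, 14 or 15 genes of the list were called, not always the same ones. NR4A1, an orphan nuclear receptor, had 3.69, 5.9, 4.2 and 9.42 CPM in experiment 1 and 48.1, 50.7, 92.7 and 90.1 CPM in experiment 2 (log2 difference 3.61 ± 0.21). ATF3, a stress-induced relative of the AP-1 factors, had 15.9, 10.6, 9.55 and 13 CPM and 33.1, 43.2, 75.1 and 62.4 CPM (log2 difference 2.08 ± 0.26). The groups did not overlap for either gene, as for 16.3% of all genes tested in this direction. DUSP1, a phosphatase that switches off MAP kinases, stayed flat over the days of both experiments, with 64.3, 70.5, 54.4 and 55.6 CPM in experiment 1 and 212, 216, 208 and 215 CPM in experiment 2 (log2 difference 1.81 ± 0.11; edgeR adjusted p = 1.51e-04).

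**Figure D1:**
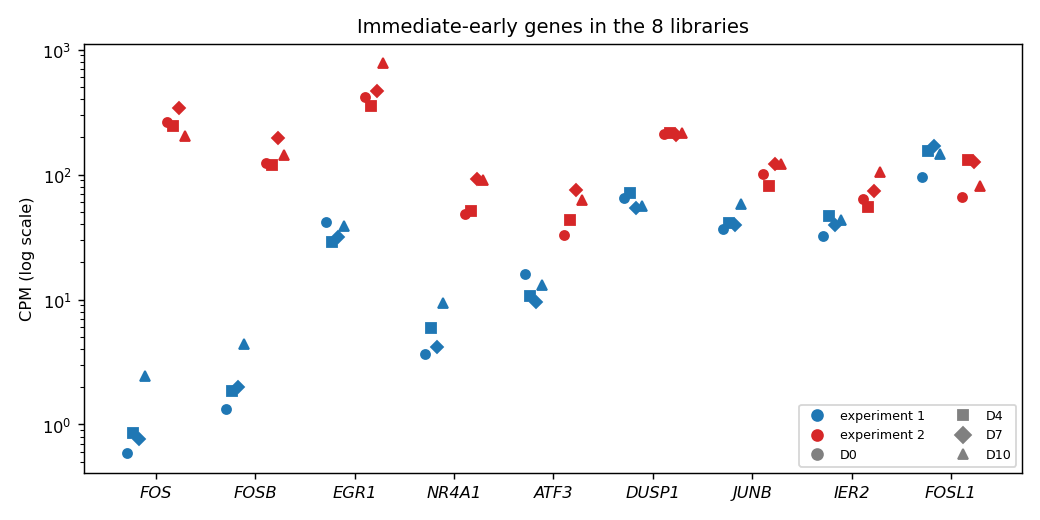
Level of 9 immediate-early genes in the 8 libraries (CPM, log axis), with experiment 1 in blue, experiment 2 in red and the day of medium as the symbol; every point is 1 library. FOS (0.587 against 265 CPM at D0) and FOSB (1.34 against 124 CPM) lie farthest apart, while FOSL1 is lower in experiment 2 on every day.

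Smaller differences were seen for other members. The AP-1 subunit gene JUNB had 37, 40.9, 39.1 and 57.7 CPM in experiment 1 and 102, 80.3, 122 and 122 CPM in experiment 2 (log2 difference 1.29 ± 0.13), and JUN, its relative, had 158, 173, 164 and 159 CPM and 230.2, 216, 295 and 358 CPM (log2 difference 0.72 ± 0.15). ZFP36, whose protein destabilizes cytokine mRNAs, was 1.02 ± 0.15 higher on the log2 scale, and the Krüppel-like factors KLF4 and KLF6 were higher by 1.18 ± 0.20 and 0.87 ± 0.15. NR4A2 rose with the day of medium in both experiments, from 2.68 to 55 CPM in experiment 1 and from 6.92 to 153 CPM in experiment 2, and was higher in experiment 2 at each step (log2 difference 1.31 ± 0.14; edgeR adjusted p = 9.64e-04). IER2 passed the test as well (0.85 ± 0.16), although 30.8% of its exons overlap exons of the opposite strand, and the strand setting of the counting is not given in the sources used here. EGR3 passed (log2 difference 1.13 ± 0.36) only narrowly (edgeR adjusted p = 0.0406), and lost its call without any 1 of the 8 libraries (adjusted p 0.0551 to 0.187).

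FOSL1 went the other way. This AP-1 subunit, induced by sustained RAS and ERK signaling, had 94.9, 156, 169.5 and 147 CPM in experiment 1 and 66.4, 130.1, 127 and 81.3 CPM in experiment 2, lower on each day (log2 difference −0.51 ± 0.12; edgeR adjusted p = 0.0126). Its call was lost without the D0 library of experiment 1 (adjusted p = 0.0585) or of experiment 2 (0.0672), and with the offsets for GC content and length described below (0.236). The other 6 members of the list did not pass the test, among them EGR2, JUND, NR4A3, KLF2 and FOSL2. JUND alone of these had an extra difference at D10, with 109, 138, 113 and 111 CPM in experiment 1 and 151, 125, 137 and 298 CPM in experiment 2 (1.22 ± 0.25; edgeR adjusted p = 0.0171).

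The noncoding RNAs MALAT1 and NEAT1 were among the 12 genes that led the all-day differences. MALAT1 (ENSG00000251562.7, chr11:65497688-65506516), a long nuclear RNA of splicing speckles, had 39.1, 39.8, 70.9 and 68.9 CPM in experiment 1 and 399, 370.5, 422 and 355 CPM in experiment 2 (log2 difference 2.87 ± 0.19; edgeR adjusted p = 1.78e-04). NEAT1 (ENSG00000245532.7, chr11:65422774-65445540), the scaffold of paraspeckles, had 59.6, 53.5, 103 and 88.2 CPM and 517, 366, 404 and 454 CPM (2.55 ± 0.19; adjusted p = 3.06e-04). The groups did not overlap for either RNA, which the choice of genes by a difference on every day largely fixes. Together they made up 0.00907% to 0.0170% of the counts in experiment 1 and 0.0745% to 0.0955% in experiment 2. MEG3, an imprinted noncoding RNA, had 311, 319, 493 and 402 CPM and 1102, 1029, 1047 and 957 CPM (log2 difference 1.46 ± 0.16).

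By annotated class, sense-intronic transcripts held the larger share of higher calls. Of 62 sense-intronic genes tested, 22 (35.5%) were higher and 2 (3.23%) were lower in experiment 2, with a median log2 difference of 0.59 and daily medians of 0.37 to 0.50. The share of counts in lincRNA, antisense and sense-intronic genes was 0.429% to 0.465% in experiment 1 and 0.552% to 0.619% in experiment 2. Of 377 lincRNAs 52 (13.8%) were higher and 27 (7.16%) lower, with a median difference of 0.01, and of 517 antisense genes 58 (11.2%) were higher and 30 (5.80%) lower, with a median of 0.05. Both shares of higher genes lie below the 18.6% over all genes tested. How far unspliced or nuclear RNA contributes to these values was not tested.

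The other genes that led the list of all-day differences belong to no common pathway of those examined. CEP290, a protein of the ciliary base, had 3.18, 4.73, 6.26 and 5.46 CPM in experiment 1 and 31.7, 31.5, 28.9 and 33.8 CPM in experiment 2 (log2 difference 2.69 ± 0.18). ESF1, a nucleolar factor, had 1.43, 1.94, 3.82 and 4.04 CPM and 14.8, 17.4, 15.6 and 22.9 CPM (2.70 ± 0.23). GABRE, a GABA receptor subunit, had 0.754, 0.854, 1.53 and 1.27 CPM and 4.95, 3.73, 6.61 and 7.73 CPM (2.37 ± 0.23). In all 3 genes the experiments did not overlap, with experiment 2 above, which was so for 16.3% of all genes tested. These 3 genes were chosen for a difference on every day, so the choice largely fixes this. The golgin genes GOLGA8A (2.33 ± 0.15) and GOLGA8B (2.69 ± 0.24) were higher too, but they are near copies of each other. They share 69% and 65.4% of their 50-base stretches with other genes, and their separate values are uncertain.

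The difference between the experiments moved with the base composition and length of the transcript. Genes were put into 10 equal groups by the GC content of their longest transcript. In the group of lowest GC content, 55.7% were higher and 1.02% lower in experiment 2, with a median log2 difference of 0.55. In the group of highest GC content, 5.37% were higher and 31.4% lower, with a median of −0.29. The slope ran the same way on every day, from 0.59 to −0.32 at D0, from 0.73 to −0.48 at D4, from 0.40 to −0.11 at D7 and from 0.41 to −0.19 at D10. Between the lowest and highest of 10 groups by length, the median went from −0.21 to 0.26. The 223 genes higher on all days had a median GC content of 40.6%, the 20 lower ones 55.9% and all genes tested 48.0%, with median lengths of 6491, 2426.5 and 4906 bases.

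**Figure D2:**
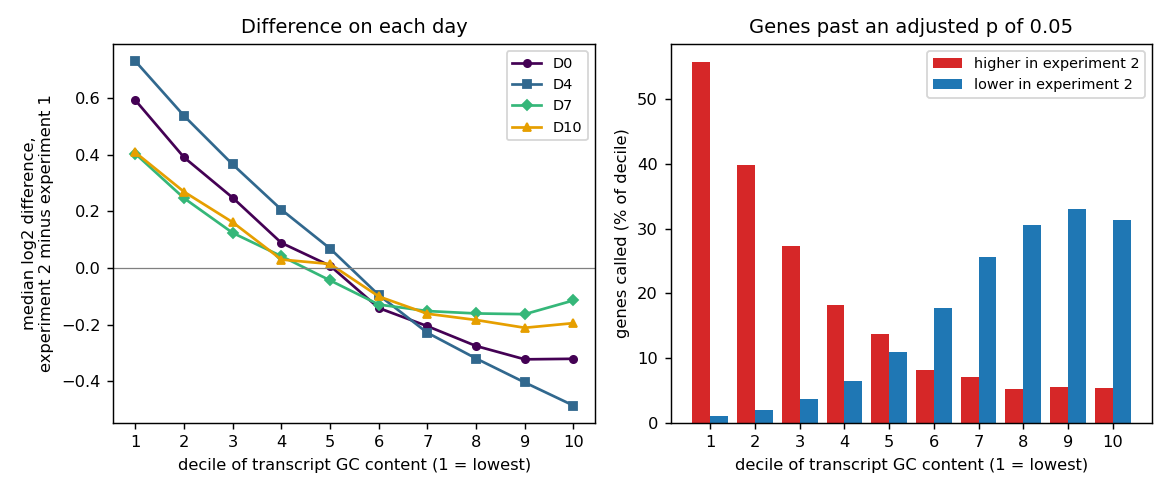
Left: median log2 difference, experiment 2 minus experiment 1, on each day in 10 equal groups of genes ordered by GC content of the longest transcript (1 = lowest). Right: share of each group called higher (red) or lower (blue) in experiment 2 by edgeR; the share called higher falls from 55.7% to 5.37% while the share called lower rises from 1.02% to 31.4%.

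With a smooth function of GC content and length removed from each library, edgeR called 3415 genes, of which 1388 were higher and 2027 lower (40.6% higher, against 53.5% without it), and the median difference became −0.05. Under this alternative 149 genes differed at least 2-fold on all days, 129 of them higher. Of the immediate-early list 15 genes were then called, all 15 higher in experiment 2. FOS (7.95), FOSB (6.08) and EGR1 (3.98) had log2 differences at least as large as before, while those of the low-GC genes CEP290 (2.02) and ESF1 (2.14) shrank. Whether the slope arose in the cells or in the preparation of the libraries was not tested. The study's methods describe RNA of high integrity for both experiments.

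Fewer genes were lower in experiment 2 on all 4 days, and they were of low level, with a median of 2.13 CPM against 21.6 CPM over all genes tested. LCE2A (ENSG00000187173.3, chr1:152698364-152699442), a gene of the epidermal cornified envelope, had 3.77, 9.47, 8.55 and 3.88 CPM in experiment 1 and 0.946, 1.94, 1.44 and 0.237 CPM in experiment 2 (log2 difference −2.52 ± 0.28; edgeR adjusted p = 0.00111). CCND2 (ENSG00000118971.7, chr12:4273772-4305350), which encodes cyclin D2 of the G1 phase, was the most abundant of the 8 named, with 171, 244, 107 and 85.3 CPM and 39.1, 47.5, 36.1 and 25.1 CPM (−1.96 ± 0.14; adjusted p = 3.06e-04). SELPLG, a ligand of selectins known from leukocytes, fell over the days in both experiments, with 13.5, 13.8, 9.39 and 4.59 CPM and 4.22, 4.32, 2.35 and 1.26 CPM (−1.78 ± 0.16). The groups did not overlap in these 3 genes, although SELPLG at D10 of experiment 1 came close to the D0 and D4 values of experiment 2. Experiment 2 lay wholly below experiment 1 in 15.7% of all genes tested, and the choice by a difference on every day largely fixes this. MGAT3, a glycosyltransferase, had 33.8, 33.5, 29 and 26.2 CPM and 10.8, 12.4, 13.3 and 8.83 CPM (−1.44 ± 0.13). ABCA3, a lipid transporter known from lung surfactant, rose to 14.9 CPM in experiment 1 and to 4.81 CPM in experiment 2 from 8.13 and 2.98 CPM at D0 (−1.37 ± 0.16). SNAI3-AS1 (−1.34 ± 0.16) is an antisense gene next to the cholesterol gene MVD, which was lower as well.

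Genes of energy metabolism were lower in experiment 2 by a small but shared margin. Of 31 nuclear genes of the respiratory chain 19 were lower and none was higher, with a median log2 difference of −0.39. Of these 31 genes 26 lay lower on every day. Over all genes tested 16.2% were lower and 18.6% higher, and 3532 of 13798 lay lower on every day. The daily medians of the list were −0.39, −0.62, −0.34 and −0.27. COX8A, a subunit of cytochrome c oxidase, had 133, 166, 122 and 114 CPM in experiment 1 and 87.7, 96.8, 83.2 and 79.3 CPM in experiment 2 (log2 difference −0.62 ± 0.10; edgeR adjusted p = 0.00313). The 2 groups did not overlap, as for 15.7% of all genes tested in this direction. ATP5B, the catalytic subunit of ATP synthase, had 770.4, 852, 746 and 686 CPM and 526, 578, 518 and 475 CPM (−0.54 ± 0.11; adjusted p = 0.00872), a call that was lost without the D0 library of experiment 1 (0.0651) or 2 (0.0702). NDUFS7, a complex I subunit, had the largest difference of the list (−0.72 ± 0.10), but 49.1% of its exons overlap the opposite strand. The number of calls went down to 6 without either D0 library, to 9 without the D4 library of experiment 1, and to 11 and 12 without that of D7 in experiment 1 or 2. With the GC and length offsets it was 21. The mitochondrially encoded subunits did not follow: 2 of 13 were higher, MT-ND6 (1.15 ± 0.16) and MT-ND1 (0.54 ± 0.14), and none was lower over the 4 days. Without either D0 or either D4 library 1 gene was called, and without the D10 pair 6 were higher.

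The synthesis of cholesterol showed a similar pattern. Of 24 genes 13 were lower and none was higher in experiment 2, with a median log2 difference of −0.53. Over all genes tested 16.2% were lower and 18.6% higher, with a median of 0.01. Of the list 12 to 15 genes were called with 1 library left out and 16 with the offsets. MVD, the decarboxylase of the mevalonate pathway, had 109, 136, 98.8 and 63.6 CPM in experiment 1 and 80.9, 60.6, 35.5 and 36.7 CPM in experiment 2 (log2 difference −0.96 ± 0.16). MVK, the kinase of the same pathway, had 40.1, 45.2, 31.9 and 18.7 CPM and 29.7, 19.9, 14.2 and 8.83 CPM (−0.96 ± 0.15), and DHCR7, which catalyzes a last step of cholesterol synthesis, 219.6, 219, 183 and 146 CPM and 144, 112, 76.5 and 91.1 CPM (−0.88 ± 0.13). All 3 were lower at D10 than at D0 in both experiments, and MVD and MVK overlapped between the experiments across days, but not within a day. In fatty acid synthesis 5 of 12 genes were lower and none was higher, among them the desaturase FADS2 (−0.77 ± 0.13). Leaving out 1 library left 2 to 5 of these calls, with 2 without either D7 library and 3 without the D0 library of experiment 2 or either D4 library.

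**Figure D3:**
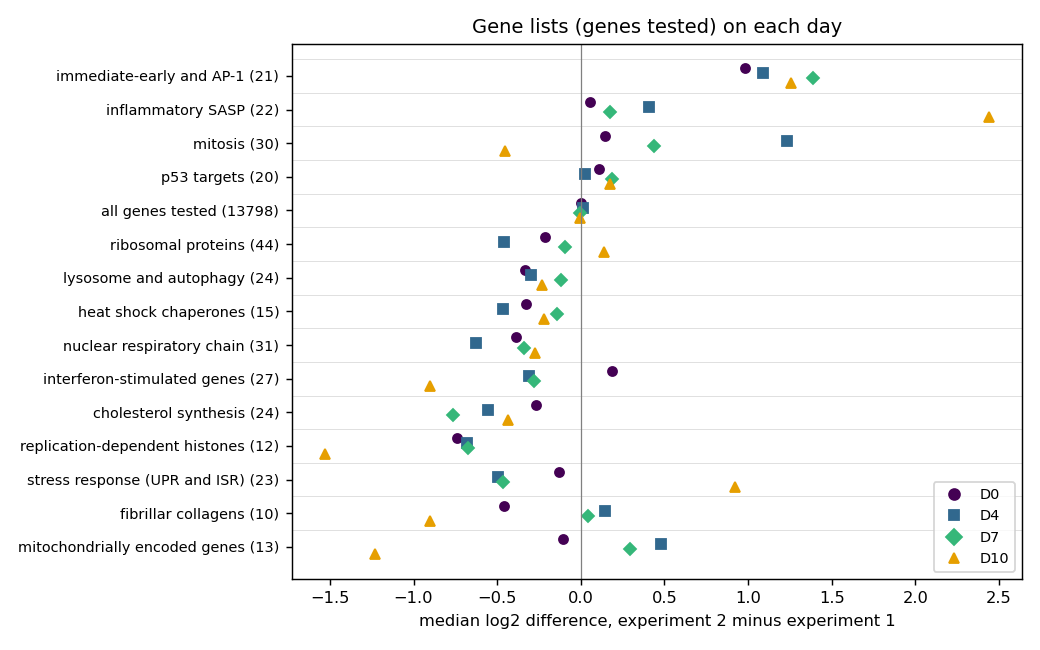
Median log2 difference, experiment 2 minus experiment 1, of each gene list on each day (CPM with a prior count of 2); every point is the median over the tested members of 1 list in 1 pair of libraries. The immediate-early list lies to the right on all 4 days (0.98 to 1.39), the respiratory chain and cholesterol lists lie to the left, and the inflammatory SASP list lies far to the right at D10 alone (2.44).

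Histone genes, whose mRNAs are mostly made in S phase and end without a poly(A) tail, were lower as well. Of 12 tested, 8 were lower and 1 was higher, with a median of −0.98, against 16.2% lower and 18.6% higher over all genes tested. The linker histone gene HIST1H1C had 77.7, 57.2, 43.1 and 41.7 CPM in experiment 1 and 33.4, 27.5, 18.4 and 21.3 CPM in experiment 2 (log2 difference −1.12 ± 0.10; edgeR adjusted p = 5.50e-04). The groups did not overlap, as for 15.7% of all genes tested in this direction. HIST1H3H, named from the all-day genes, had 6.12, 5.97, 5.12 and 4.04 CPM and 2.62, 2.54, 1.29 and 0.316 CPM (−1.76 ± 0.34). Without either D7 library 5 genes of the list were called in place of 9. HIST4H4, the 1 gene that was higher (2.15 ± 0.54), had under 1 CPM in every library of experiment 1, and its call was lost without any D0, D4 or D7 library (adjusted p 0.0622 to 0.091). Since the libraries were made from poly(A) RNA, these counts cover only the histone transcripts that carry such a tail.

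Interferon-stimulated genes, which mark antiviral and type I interferon signaling, were lower in 7 and higher in 1 of 27 tested, with a median of −0.40. Over all genes tested 16.2% were lower and 18.6% higher. In either direction 29.6% of the list was called, under the 34.8% over all genes tested. The daily medians were 0.19, −0.31, −0.28 and −0.90 at D0, D4, D7 and D10, so that by its median the list was not lower at D0. Of the 27 genes 10 were lower and 2 higher on every day, against 3532 and 3544 of 13798 over all genes tested. ISG15, a ubiquitin-like modifier, fell over the days in both experiments and was lower in experiment 2 on each, with 99.9, 83.3, 73.4 and 34.3 CPM in experiment 1 and 55.4, 28.1, 31.2 and 14.6 CPM in experiment 2 (log2 difference −1.22 ± 0.13; edgeR adjusted p = 8.80e-04). IFI6, a mitochondrial interferon-induced protein, had 206, 167, 172 and 103 CPM and 119, 54.5, 55.1 and 20.4 CPM (−1.58 ± 0.21), and IFI27 had 12.3, 13.4, 12.8 and 8.95 CPM and 8.08, 3.65, 4.18 and 0.71 CPM (−1.70 ± 0.36). For all 3 genes the D10 library of experiment 2 was the lowest of the 8. GBP1, a GTPase induced by interferon gamma, was the exception, with 40.0, 18.7, 17.9 and 12.7 CPM and 55, 34.7, 31.9 and 14.8 CPM (0.61 ± 0.13; adjusted p = 0.0105, and 0.0552 without the D7 library of experiment 2). Without that library 5 genes of the list were called in place of 8.

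Further lists held more genes that were lower than higher, where 16.2% of all genes tested were lower and 18.6% higher. In either direction 33.3% of the heat shock, 25% of the lysosome and 35.3% of the NRF2 genes were called. For glycolysis and smooth muscle genes it was 43.5% and 43.8%, and over all genes tested 34.8%. Of 15 heat shock chaperones 5 were lower and none was higher, and BAG3, a co-chaperone, had 166, 161, 149.6 and 127 CPM in experiment 1 and 92.4, 111, 98.5 and 61.7 CPM in experiment 2 (log2 difference −0.75 ± 0.11). Of 24 lysosome and autophagy genes 6 were lower, such as the autophagosome gene MAP1LC3B (−0.57 ± 0.10). Of 17 NRF2 targets 6 were lower, and of 23 glycolysis and hypoxia genes 7 were lower and 3 higher. Without either D0 library 3 chaperone, 2 lysosome and 2 NRF2 genes were called, and without either D4 library 2 lysosome and 3 NRF2 genes. Of 16 smooth muscle contraction genes 7 were lower, led by MYL9, a myosin light chain, with 2366, 2273, 1740.0 and 1291 CPM and 1509, 1273, 993 and 751 CPM (−0.77 ± 0.13), but 2 of 16 were called with the GC and length offsets, 2 without either D0 or either D4 library and 4 without either D7 library. ACTA2, the smooth muscle actin of myofibroblasts, fell from 1347 to 225 CPM in experiment 1 and from 1164 to 145 CPM in experiment 2. Its log2 difference between the experiments (−0.48 ± 0.13; edgeR adjusted p = 0.0204) lost its call with the offsets (0.0748) and without any D0, D4 or D7 library (0.0516 to 0.0849). Of 44 ribosomal protein genes 1 was higher, none without any D0 or D7 library, and without the D10 pair 14 were lower.

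HRAS, 1 of the RAS genes, had 54.3, 66.1, 55.5 and 47.7 CPM in experiment 1 and 37.9, 36.5, 33.2 and 33.8 CPM in experiment 2 (log2 difference −0.65 ± 0.10). CDKN2A, which encodes p16INK4A and p14ARF, was lower in experiment 2 (−0.60 ± 0.11), with 48.5, 58.2, 40.0 and 40.0 CPM and 35.6, 35, 29.5 and 22.9 CPM. CDKN1A, which encodes p21CIP1, did not pass the test over the 4 days (−0.36 ± 0.18; edgeR adjusted p = 0.146): it was lower in experiment 2 at D0, D4 and D7 and higher at D10, with 1733, 1810.0, 1468 and 1594 CPM and 1316, 1059, 1049 and 1847 CPM.

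Of 30 mitosis genes 6 were higher, a share close to the 18.6% over all genes tested, and none was lower. The daily medians were 0.14, 1.23, 0.44 and −0.45. Without the D10 pair 15 of 30 were higher (2926 of 13558 genes tested), without the D4 library of experiment 2 alone 3, and with the GC and length offsets 4. The median GC content of the list was 42.9%, lower than that of all genes tested. Of 33 DNA replication genes 5 were higher and 2 lower, and with the offsets 3 were higher and none was lower. The 21.2% called without the offsets was under the 34.8% over all genes tested. Without the D7 library of experiment 2, 2 of the 33 were called. CENPE, a kinesin of the kinetochore, had 0.67, 0.621, 1.15 and 0.633 CPM in experiment 1 and 3.2, 9.02, 5.24 and 2.6 CPM in experiment 2 (log2 difference 2.61 ± 0.34; edgeR adjusted p = 0.00175). MKI67, the proliferation marker Ki-67, had 4.69, 4.81, 8.55 and 9.58 CPM and 6.55, 24.8, 16.3 and 3.47 CPM. In experiment 1 it was highest at D10, and in experiment 2 it was highest at D4 and lowest at D10. The B-type lamin gene LMNB1, which falls in senescent cells, was higher in experiment 2 on each day (0.85 ± 0.21; adjusted p = 0.0166), with 3.94, 3.03, 4.81 and 3.33 CPM and 5.17, 8.43, 7.67 and 6.07 CPM. Its call was lost without the D4 library of experiment 1 (0.0617) or 2 (0.0711) or the D7 library of experiment 2 (0.051). In bulk RNA, fewer dividing cells and less of these transcripts per cell cannot be told apart.

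Secreted growth factors did not move as 1 group: of 21 tested 5 were higher and 2 lower, and 2 higher and 2 lower with the GC and length offsets. The 33.3% called without the offsets was near the 34.8% over all genes tested. FGF7, a fibroblast factor that acts on epithelium, had 25.1, 24.3, 44.8 and 94.1 CPM in experiment 1 and 113, 106, 144 and 379 CPM in experiment 2 (log2 difference 1.99 ± 0.12; edgeR adjusted p = 1.51e-04). It rose at D10 in both experiments, and the D10 library of experiment 1 remained under the lowest library of experiment 2. VEGFA, the main angiogenic factor, had 62.8, 62.9, 74.6 and 97.2 CPM and 97.5, 107, 109 and 232 CPM (0.80 ± 0.13), and FGF1 was lower (−0.59 ± 0.14; adjusted p = 0.0127), a call lost without any D0 or D7 library (0.0565 to 0.077). Without either D0 library 3 genes of the list were called in place of 7, without either D7 library 4, and without either D10 library 11. PAPPA, a protease that frees insulin-like growth factors, was higher (1.02 ± 0.12), with 95.4, 51.5, 96.8 and 237 CPM and 175, 134, 189 and 429 CPM.

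The matrix differed gene by gene. THBS2, a matricellular protein, had 0.754, 0.233, 0.535 and 0.713 CPM in experiment 1 and 5.02, 2.98, 1.97 and 4.65 CPM in experiment 2 (log2 difference 2.68 ± 0.31; edgeR adjusted p = 0.00122), and COL7A1, the anchoring fibril collagen, 63.1, 61.8, 85.2 and 161 CPM and 135, 128, 183 and 648 CPM (1.32 ± 0.17). The groups did not overlap for THBS2, as for 16.3% of all genes tested in this direction. For COL7A1 only the D10 library of experiment 1 reached into the range of experiment 2. SPARC, an abundant collagen-binding protein, was lower (−0.73 ± 0.19), with 4661, 3718, 3392 and 3595 CPM and 2745, 2936, 2428 and 1441 CPM, a call lost without either D0 library (adjusted p = 0.0834 and 0.0981) or the D7 library of experiment 2 (0.0509). Of 10 fibrillar collagens 4 of low level were higher and COL5A3 was lower over the 4 days, and 3 were called without the D0 library of experiment 2 or either D7 library.

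Among the inflammatory ligands of the SASP some were higher in experiment 2 before D10, and others were silent in both experiments until then. Of 22 tested 14 were higher and 1 was lower over the 4 days, against 18.6% and 16.2% of all genes tested. The daily medians of 0.06, 0.41, 0.17 and 2.44 show that much of this came from D10, and without the D10 pair 6 were higher and 1 was lower. LIF, a cytokine of the IL-6 family, had 86.6, 119, 172 and 423 CPM in experiment 1 and 242, 245, 339.7 and 1074 CPM in experiment 2 (log2 difference 1.21 ± 0.13; edgeR adjusted p = 9.48e-04, and 2.25e-05 without D10). EREG, a ligand of the EGF receptor, had 0.168, 0.466, 1.38 and 1.74 CPM and 1.46, 2.68, 3.42 and 10.5 CPM (adjusted p = 0.00137 without D10), and IL6 had 5.03, 3.18, 4.66 and 39.1 CPM and 10.2, 9.47, 8.2 and 517 CPM (8.70e-04 without D10). CXCL8, the neutrophil chemokine IL-8, had 1.01, 0.931, 4.28 and 189 CPM and 2.77, 4.85, 7.75 and 3012 CPM (0.00214 without D10). These 4 genes were higher in experiment 2 on each day, in the D0 pair too. MMP3, a matrix protease, was the 1 gene that was lower without D10 (adjusted p = 1.74e-04), with 19.5, 26.9, 42.2 and 254 CPM in experiment 1 and 4.29, 9.1, 23.8 and 3327 CPM in experiment 2, so that its order reversed at D10.

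The interleukin 1 genes, which lead the SASP in many accounts, gave no baseline to compare. IL1A had 0, 1, 0 and 11 counts at D0, D4, D7 and D10 of experiment 1 and 0, 1, 0 and 66 counts in experiment 2, and IL1B had 0, 1, 1 and 148 and 1, 2, 4 and 723 counts. IL24, a cytokine of the IL-10 family, had 0, 1, 4 and 32 and 0, 1, 5 and 981 counts. Before D10 these counts were at or close to the floor of 3, and no fold is given for them. The chemokine CXCL2, by contrast, had 0, 3, 0 and 12 counts in experiment 1 and 16, 8, 10 and 172 in experiment 2, and passed the test without D10 (adjusted p = 0.00543).

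Regulators and targets of NF-κB were divided. Of 22 tested 7 were higher and 2 lower, with a median of 0.11, against 18.6% and 16.2% over all genes tested. In either direction 40.9% of the list was called, and 34.8% over all genes tested. Of the list 4 were called without the D0 library of experiment 2 and 5 without that of experiment 1 or either D4 library. PTGS2, the inducible cyclooxygenase, had 1.34, 1.71, 5.73 and 41.2 CPM in experiment 1 and 4.37, 7.08, 18.8 and 208 CPM in experiment 2 (log2 difference 2.02 ± 0.15; edgeR adjusted p = 3.06e-04). NFKBIZ, an inducible NF-κB cofactor, had 12.6, 10.0, 28.4 and 79.1 CPM and 52.9, 48.8, 68 and 344 CPM (1.93 ± 0.17; adjusted p = 5.50e-04). Both rose at D10 in both experiments and were higher in experiment 2 on every day. TNIP1, an inhibitor of the pathway, was lower (−0.52 ± 0.10), and NFKBIA, the inhibitor IκBα, did not pass (−0.10 ± 0.10).

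Receptors and transducers of inflammatory ligands showed differences of smaller size, and 25% of the list was called, against 34.8% over all genes tested. Of 24 tested 3 were higher and 3 lower, with a median of 0.07, and 1 was called without either D0 library, 3 without either D4 library and 1 with the offsets. IL1R1, the signaling receptor of interleukin 1, had 108, 84, 144 and 258 CPM in experiment 1 and 137, 161, 269.8 and 247 CPM in experiment 2, and was higher in experiment 2 at D0, D4 and D7 but not at D10. MYD88, the adaptor of the interleukin 1 and toll-like receptors, was lower on every day, with 71.1, 65.7, 63.7 and 56.1 CPM and 55.4, 47.6, 50.05 and 31.2 CPM (log2 difference −0.50 ± 0.11; edgeR adjusted p = 0.0106), and it is the 1 member called with the offsets (0.0348). IL6ST, the signal transducer gp130 of the IL-6 family, had 267, 189, 355 and 495 CPM and 458, 555, 524 and 363 CPM. It was higher in experiment 2 in the first 3 media and lower at D10.

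Next, the D10 pair was set against the other 3. The difference between the experiments at D10 departed from its mean over D0, D4 and D7 in 426 genes, 153 upward (1.11% of those tested) and 273 downward (1.98%), by edgeR at an adjusted p under 0.05. The same term called no gene for D0, D4 or D7 by edgeR or DESeq2, with 78, 775 and 346 genes at an unadjusted p under 0.05 in edgeR, against 2331 for D10. These fits are not a like control, because the D10 pair then stays in the spread that the test uses. Their common dispersion was 0.0328, 0.0236 and 0.0273, against 0.0129 in the fit for D10. DESeq2 called 344 genes for D10, and the GC and length offsets gave 661 (284 up and 377 down, 43.0% up against 35.9%). The number rests on few libraries: it was 74 and 44 without the D4 library of experiment 1 or 2, 734 and 755 without that of D0, and 1059 and 1149 without that of D7. Here too, leaving out 1 library takes the pair of its day out of the estimate. With 1 D10 library per experiment, the treatment and the library cannot be told apart.

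Of the genes with a mean of at least 5 CPM at D10, MMP3 had the largest upward departure. MMP3 (ENSG00000149968.11, chr11:102835801-102843803) reached 3327 CPM at D10 of experiment 2 and 254 CPM in experiment 1, although it had been lower in experiment 2 before, and its extra log2 difference was 5.15 ± 0.38 (edgeR adjusted p = 9.90e-06). IL11 (ENSG00000095752.6, chr19:55364389-55370463), a fibrogenic cytokine of the IL-6 family, had 19.1, 26.1, 26.6 and 50.4 CPM in experiment 1 and 24.1, 27.5, 24.4 and 836 CPM in experiment 2 (3.96 ± 0.25; adjusted p = 3.26e-06). GDF15 (ENSG00000130513.6, chr19:18374731-18389176), a stress-induced member of the TGF-β superfamily, had 75.8, 96.7, 72 and 134 CPM and 77.1, 74.3, 71.5 and 1674 CPM (3.76 ± 0.25; adjusted p = 4.54e-06). In IL11 and GDF15 the D0, D4 and D7 libraries of the experiments lay close together, and D10 of experiment 2 stood alone. IL13RA2, a decoy receptor of IL-13, had 0.168, 0.931, 1.45 and 5.22 CPM and 0.0728, 0.522, 1.67 and 140.5 CPM (4.95 ± 0.47). NRG1, a ligand of the ERBB receptors, had 31.5, 35.9, 57.4 and 128 CPM and 28, 41.2, 46.6 and 725 CPM (2.60 ± 0.24), and INHBA, which encodes activin A, 33.1, 15.4, 19.3 and 33.1 CPM and 68.3, 36.5, 34 and 217 CPM (1.68 ± 0.24). All 6 genes were called in each alternative run for them.

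**Figure D4:**
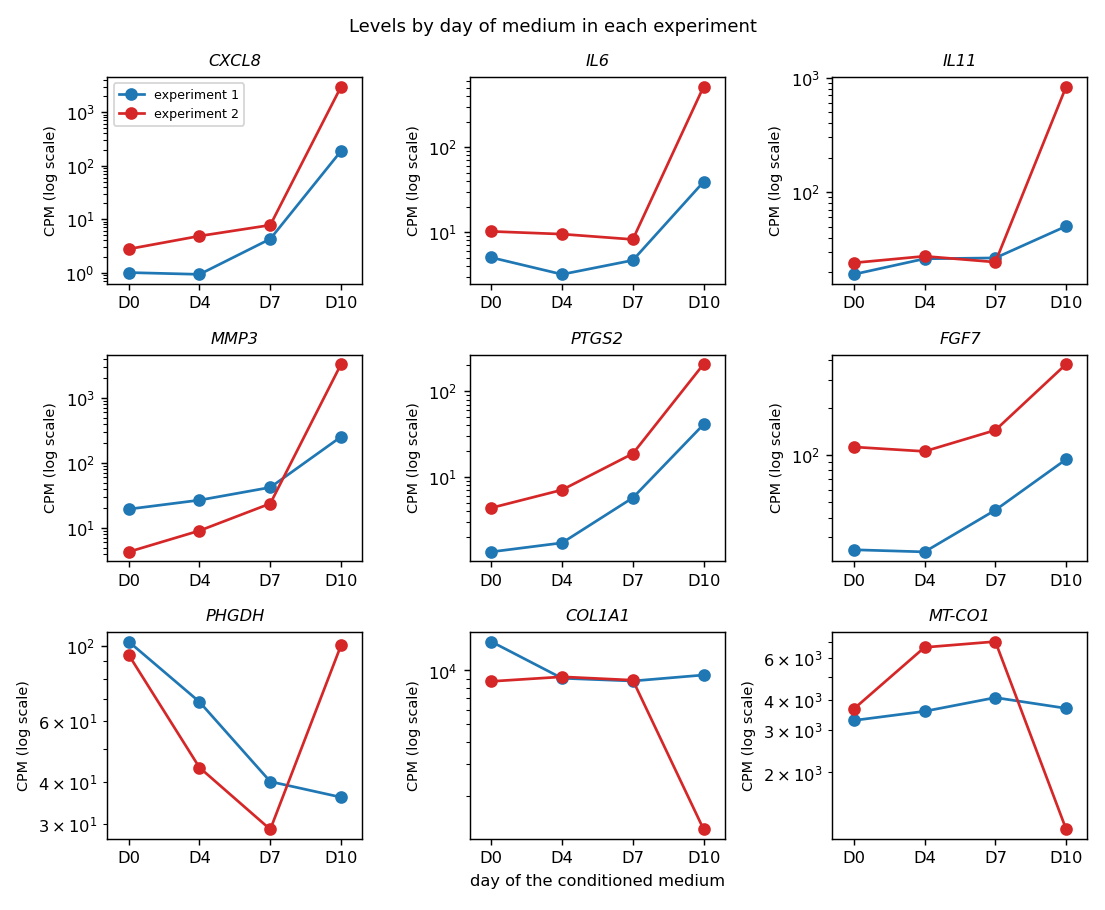
Level of 9 genes (CPM, log axes that differ between panels) by day of medium in experiment 1 (blue) and experiment 2 (red); every point is 1 library. PTGS2 and FGF7 are higher in experiment 2 on each day, whereas IL11 separates at D10 alone (836 against 50.4 CPM) and COL1A1 falls to 1295 CPM at D10 of experiment 2.

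Genes were filtered by day, so a gene near the floor before D10 can be tested through its D10 counts alone. Over all genes tested 1.11% departed upward at D10 and 1.98% downward. Of the 22 inflammatory SASP genes 7 had an upward departure at D10 and none a downward one, and 4 had one without either D4 library. IL6 was among them, with 517 CPM at D10 of experiment 2 against 39.1 CPM in experiment 1 (extra log2 difference 2.60 ± 0.28; edgeR adjusted p = 1.81e-04), so that its difference at D10 exceeded the one it had before. CXCL8 departed by 2.62 ± 0.37 (adjusted p = 0.00204; DESeq2 0.0667). LIF, by contrast, rose in parallel: its extra difference was 0.18 ± 0.25 (adjusted p = 0.764), and its D10 change was 2.28 log2 units in experiment 1 and 2.15 in experiment 2. PTGS2 (0.54 ± 0.27) and NFKBIZ (0.29 ± 0.31) did not pass the test of the extra difference either, while TNFAIP3, the NF-κB inhibitor A20, did (2.08 ± 0.31; adjusted p = 0.00311, and 0.0522 and 0.0745 without the D4 library of experiment 1 or 2). Of the 22 NF-κB genes 3 departed upward (1.11% of all genes tested), and 1 and none were called without the D4 library of experiment 1 and 2. C3, the central complement component, had 2.68, 2.95, 21.9 and 417 CPM in experiment 1 and 2.91, 2.54, 13.1 and 216 CPM in experiment 2, lower in experiment 2 at D10 (−0.52 ± 0.28; adjusted p = 0.366).

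Genes of the integrated stress response and of serine synthesis, which ATF4 drives, departed upward together. Of 23 genes of the stress response list 10 were higher and none was lower at D10, against 1.11% and 1.98% of all genes tested. The daily medians of the list were −0.13, −0.49, −0.46 and 0.92, and without the D10 pair 10 of its genes were lower in experiment 2 and 2 higher. PHGDH, the first enzyme of serine synthesis, had 103, 68.4, 40.0 and 36 CPM in experiment 1 and 94, 44, 29 and 100.3 CPM in experiment 2 (extra log2 difference 1.88 ± 0.25; edgeR adjusted p = 0.00113). DDIT4, an inhibitor of mTORC1, had 54.2, 35, 25 and 38.3 CPM and 41.5, 15.3, 11.2 and 125 CPM (2.59 ± 0.30; adjusted p = 4.13e-04), with 41.2% of its exons opposite another gene. Both fell from D0 to D7 in both experiments and were back at or above their D0 level only in the D10 library of experiment 2. TRIB3, a pseudokinase induced by ATF4, had 43.7, 44, 32.2 and 34 CPM and 55.9, 22.8, 21 and 139.9 CPM (2.42 ± 0.37; adjusted p = 0.00336, and 0.0534 and 0.0745 without the D4 library of experiment 1 or 2). ATF4 itself (1.07 ± 0.23), DDIT3 (1.84 ± 0.35), PSAT1 (2.33 ± 0.41), PCK2 (2.005 ± 0.36), MTHFD2 (1.74 ± 0.27), SHMT2 (1.20 ± 0.23) and CEBPB (0.99 ± 0.24) made up the rest. The chaperones of the unfolded protein response did not pass the same test, with 0.08 ± 0.25 for HSPA5 and −0.06 ± 0.33 for SDF2L1, and both were lower in experiment 2 over the 4 days (−0.48 ± 0.13 and −0.89 ± 0.15). Without the D4 library of experiment 1, 2 genes of the list were called, and likewise without that of experiment 2.

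Of 10 fibrillar collagens 4 departed downward at D10 and none upward, and of 17 network and other collagens 3 departed downward and 1 upward. Over all genes tested 1.98% departed downward and 1.11% upward. COL1A1 (ENSG00000108821.13, chr17:50183289-50201632), the alpha 1 chain of type I collagen, had 14500.0, 9049, 8735 and 9432 CPM in experiment 1 and 8694, 9214, 8826 and 1295 CPM in experiment 2, so that the experiments lay close together at D4 and D7 and apart at D10 (extra log2 difference −2.63 ± 0.36; edgeR adjusted p = 0.00146). COL3A1 had 3360.0, 1512, 1607 and 2446 CPM and 2250.0, 1647, 1446 and 467 CPM (−2.19 ± 0.30; adjusted p = 0.00166). Of the 10 fibroblast markers 5 departed downward. Of 13 mitochondrially encoded genes 9 departed downward, with a median D10 difference of −1.23 after 0.48 at D4 and 0.29 at D7. MT-CO1, a subunit of cytochrome c oxidase, had 3292, 3593, 4096 and 3696 CPM in experiment 1 and 3673, 6627, 7003 and 1160.0 CPM in experiment 2 (−2.28 ± 0.33; adjusted p = 0.00207, DESeq2 0.0622). With 1 library left out, 0 to 7 fibrillar collagen, 0 to 6 marker and 0 to 10 mitochondrial calls were made. Without the D4 library of experiment 2 no gene of these 3 lists was called, and the adjusted p of COL1A1 and MT-CO1 was 0.0694 for each and that of COL3A1 0.053.

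The single genes with the largest downward departures encode proteins of the cell surface, of the matrix and of metabolism. ITGBL1, an integrin-like secreted protein, had 141, 134, 146 and 103 CPM in experiment 1 and 100.4, 141, 108 and 9.7 CPM in experiment 2 (extra log2 difference −3.12 ± 0.28; edgeR adjusted p = 7.08e-05), with 70.5% of its exons opposite another gene. WISP1, a CCN protein and target of Wnt signaling, had 73.5, 34.9, 59 and 94.5 CPM and 60.3, 68, 70.6 and 14.4 CPM (−3.01 ± 0.37; adjusted p = 6.96e-04). SLC14A1, a urea transporter, rose with D4 and D7 medium in both experiments and dropped in the D10 library of experiment 2, with 41.4, 165, 178 and 139.5 CPM and 25.3, 238, 400.5 and 7.02 CPM (−4.70 ± 0.54; adjusted p = 3.44e-04, and 0.0694 without the D4 library of experiment 2). CDH6, a cadherin, had 105, 84, 81.4 and 99.99 CPM and 95.1, 116, 162 and 16.9 CPM (−3.00 ± 0.35; adjusted p = 4.16e-04, and 0.0628 without the same library). In each of these 4 genes the D10 library of experiment 2 was the lowest of the 8. ITGA8, an integrin chain of mesenchymal cells, had 30.7, 14.3, 29.5 and 67.8 CPM and 10.7, 16.4, 53.8 and 3.55 CPM (−4.16 ± 0.68; adjusted p = 0.00446, and 0.138 without the same library). PDK4, a kinase that restrains pyruvate oxidation, had 2.93, 2.64, 4.28 and 17.7 CPM and 0.509, 2.61, 16.1 and 1.97 CPM (−3.63 ± 0.92; adjusted p = 0.0498, DESeq2 0.686), and ANGPTL4, an inhibitor of lipoprotein lipase, 11.1, 18.6, 15.1 and 30.3 CPM and 4.8, 15.7, 57.3 and 3.55 CPM (−3.41 ± 0.83; adjusted p = 0.0394, and 0.245 without the same library). PARM1, a membrane mucin, departed by −3.03 ± 0.56.

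Among the upward departures that lost their call without the D4 library of experiment 2, SERPINB2, the plasminogen activator inhibitor PAI-2, had 0.251, 0.776, 0.917 and 1.5 CPM in experiment 1 and 0.509, 0.969, 0.304 and 23.6 CPM in experiment 2 (extra log2 difference 4.09 ± 0.68; edgeR adjusted p = 0.00488). TNFAIP6, a hyaluronan-binding protein induced by TNF and interleukin 1, had 0.587, 0.388, 0.764 and 1.27 CPM and 1.09, 1.34, 0.608 and 29.7 CPM (3.76 ± 0.66; adjusted p = 0.00667, and 0.0694 without the same library). FER1L6 had 0.503, 0.466, 0.153 and 1.35 CPM and 0.218, 0.373, 0.0759 and 17 CPM (4.38 ± 0.74). In all 3 genes the D10 library of experiment 2 stood alone, and the other 7 libraries had at most 1.5 CPM.

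Interferon-stimulated genes departed downward in 5 of 27, SAMD9L, DDX58, PARP9, OAS3 and HERC6, and none upward, against 1.98% and 1.11% of all genes tested. PARP9, an ADP-ribosyltransferase of the interferon response, had 33.9, 25.4, 29.2 and 23 CPM in experiment 1 and 38.6, 27.6, 34.5 and 9.39 CPM in experiment 2 (extra log2 difference −1.47 ± 0.26; edgeR adjusted p = 0.0067). Without the D4 library of experiment 1, 2 genes of the list were called, without that of experiment 2 none, and without either D7 library 9. ISG15 and IFI6, lower on every day, did not pass this test (−0.02 ± 0.28 and −0.99 ± 0.31).

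The proliferation marker MKI67 departed downward at D10. It had an extra log2 difference of −2.76 ± 0.57 (edgeR adjusted p = 0.0174, and 0.055 and 0.0815 without the D4 library of experiment 1 or 2). Of 30 mitosis genes 3 were called downward, MKI67, CENPF and TOP2A, against 1.98% of all genes tested. None was called without either D4 library, 9 without either D0 library, and 11 and 13 without the D7 library of experiment 1 or 2. Of the 33 DNA replication genes none was called in either direction, with a median extra log2 difference of −0.47 (all genes tested, −0.03). In simulated data this test recovered 2 of 100 true log2 changes of 1, so a departure of that size can go uncalled. The simulated spread came from the fit between the experiments (common dispersion 0.0242, against 0.0129 in the fit for D10). The recovery in the real data can therefore be higher. Among the genes that differed on all 4 days, few were called for a departure at D10. Of the 223 higher genes 1 was called upward (COL7A1, 0.93 ± 0.21) and 2 downward (FOS, −2.20 ± 0.39, and FOSB, −1.38 ± 0.32). Of the 20 lower genes 1 was called downward (GMNC, −2.52 ± 0.64). FOS and FOSB were higher at D10 of experiment 1 than on its other days, while FOS was lowest at D10 in experiment 2, and neither was called without the D4 library of experiment 2 (0.0582 and 0.0768).

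The D10 response of each experiment, D10 minus D0 of its own libraries, was wider in experiment 2. The SD of the log2 change across genes was 0.588 in experiment 1 and 0.769 in experiment 2, and 1020 and 1507 genes changed at least 2-fold, 511 of them in both and in the same direction. This is 50.1% of the genes of experiment 1 and 33.9% of those of experiment 2. Across 13798 genes the changes of the 2 experiments, which share no library, had a Pearson r of 0.596, and the slope of experiment 2 on experiment 1 was 0.78. Genes are not independent replicates, and no p is given. A fit with the experiment as a block called 688 genes between D10 and D0, and 500 of them (72.7%) changed more in experiment 2, with a slope of 1.26. These genes were called for a D10 change in the same libraries, so a large change in either experiment can bring a gene in. The share and slope describe this selection only. Without the block 40 genes were called, none without either D0 library, 155 without the D10 library of experiment 1 and 11 to 15 without any other.

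**Figure D5:**
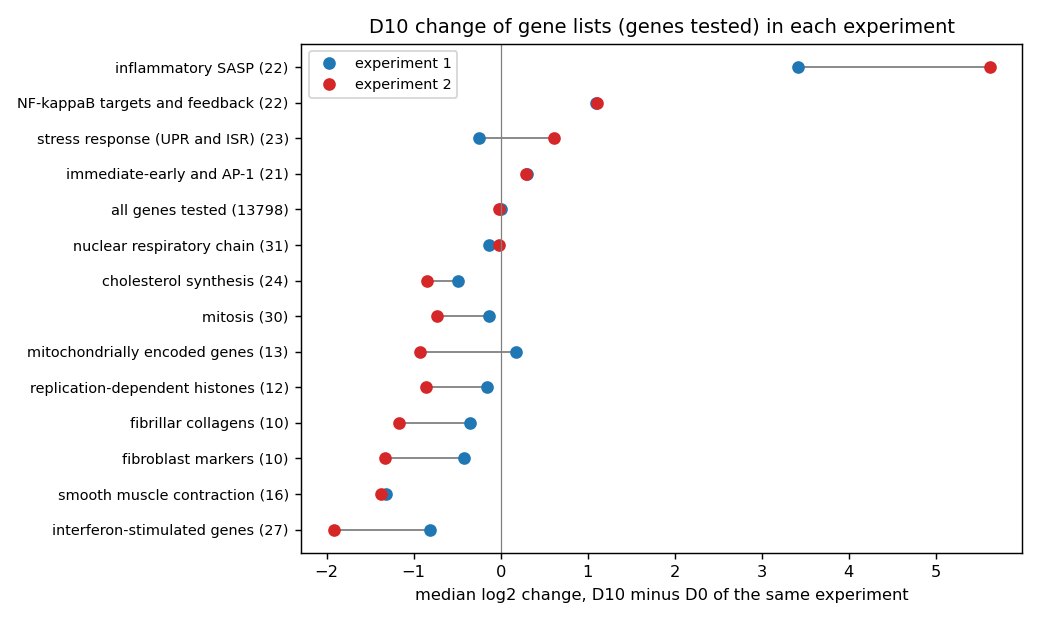
Median log2 change from D0 to D10 of each gene list in experiment 1 (blue) and experiment 2 (red); the number of tested genes is in brackets, and a line joins the 2 experiments. The SASP list rose by 3.42 and 5.62, the immediate-early list changed alike (0.30 and 0.29), and the stress response list lay below 0 in experiment 1 and above it in experiment 2.

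The lists differed in whether they shared the wider response. A gene near the floor before D10 can be tested through its D10 counts alone, which bears on the inflammatory SASP list. The median D10 change of the inflammatory SASP list was 3.42 in experiment 1 and 5.62 in experiment 2, and 20 of its 22 genes changed more in the upward direction in experiment 2. That of the NF-κB list was 1.09 and 1.11, and that of the immediate-early list 0.30 and 0.29. The stress response list changed by −0.25 in experiment 1 and by 0.62 in experiment 2. Interferon-stimulated genes changed by −0.81 and −1.91, fibrillar collagens by −0.36 and −1.17, the mitochondrially encoded genes by 0.18 and −0.92 and the mitosis genes by −0.14 and −0.73. Smooth muscle contraction genes changed by −1.32 and −1.37. Over all genes tested the medians were 0.00 and −0.01, and 6482 of 13798 changed more in the upward direction in experiment 2.

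The baseline difference was then related to the wider response of experiment 2 gene by gene. The mean of the differences between the experiments at D4 and D7 was set against the difference of their D10 changes, which uses the D0 and D10 libraries only. At D4 and D7 the cells had already received medium from induced donors. In this baseline a prior difference and an early response to these media cannot be told apart. Pearson's r across 13798 genes was −0.149 and Spearman's rho −0.180. This weak relation was −0.0611 once GC content and length were adjusted for, and −0.204 or −0.0523 with D4 or D7 alone as baseline. The points share the GC slope of the libraries, and r is a description. The 878 genes that were more than 2-fold higher in experiment 2 by the mean of D4 and D7 had a median D10 change of 0.40 in experiment 1 and of 0.04 in experiment 2. The 173 genes that were more than 2-fold lower by that mean had medians of −0.36 and −0.41.

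The lists with a baseline difference did not follow 1 pattern. By the mean of D4 and D7, 18 of 21 genes of the immediate-early list were higher in experiment 2, and 12 of 21 changed more upward in experiment 2 at D10. In the mitosis list 29 of 30 genes were higher by that mean, and 1 of 30 changed more upward at D10. The median difference of the mitosis list was 0.14 at D0 and 1.23 at D4. In the respiratory chain list 2 of 31 were higher by that mean and 25 of 31 changed more upward at D10. In the SASP list 15 of 22 were higher and 20 of 22 changed more upward, and in the stress response list the figures were 5 and 20 of 23. Over all genes tested 7024 of 13798 were higher by that mean, and 6482 changed more upward at D10.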

How the data were processed

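IMR90 recipients were harvested in Trizol, and poly(A) RNA was sequenced from TruSeq Stranded libraries in 8 libraries. As deposited, the table gave unnormalized read counts for 27696 genes in each library. Per the labels, the submitters' processing notes name STAR 2.5, DESeq2 and GRCh38 (hg38). The counter, the annotation release and the strand setting are not given in the sources used here. The table also held 8 columns of values per sample in RPM that were not used.

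Counts were tested in edgeR 4.0.16 (R 4.3.3) with TMM scaling, filterByExpr by day and the quasi-likelihood test, with Benjamini-Hochberg adjustment over all genes tested and a call at an adjusted p under 0.05. The difference between the experiments, experiment 2 minus experiment 1, was fitted with the day as a block (3 residual degrees of freedom). The extra difference at D10 was fitted with day and experiment in the model (2 residual degrees of freedom). Standard errors were derived from the F statistic. Daily differences used log2 CPM with a prior count of 2. The same script was tested on simulated data, where the edgeR test between experiments recovered 97 of 100 genes with a true log2 difference of 1. The edgeR test of the extra difference recovered 2 of 100 genes with a true log2 difference of 1 and 81 of 100 with one of 2. The simulated spread was that of the fit between the experiments, which was wider than that of the fit for D10. Alternatives were DESeq2 1.42.0, its size factors, filters, prior counts, limits, the blocks, each library left out, and offsets for GC content and length from a smooth fit per library (mgcv 1.9.3). GC content and length came from GENCODE 29 models, to which 27588 identifiers matched, and gene coordinates are from the same models on GRCh38. Promoters came from RefSeq (GRCh38.p14).

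The pairing rests on the experiments in the labels, and the daily differences correlated across genes with r of 0.418 to 0.722 between days. Named genes were the 12 highest and up to 12 lowest of the all-day genes with at least 5 CPM in the higher experiment (8 qualified as lower), the leading member of each list in each direction, the 8 largest extra differences in each direction and a set of ligands, receptors and checks. Other genes named were chosen after their values were seen. The comparison, the lists and the tests were chosen with earlier results of these data known. Within an experiment, 1 library stands for each day, so p-values measure the spread between these libraries only. With 11708193 to 13395912 counts a library, a count of 0 allows up to 3 counts, a limit that covers counting error only.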

Additional observations from a re-analysis of the deposited data

Results flagged for a closer look

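The change from the earlier media to D10 differed between the experiments by the test of that difference itself (edgeR, adjusted p under 0.05) in 426 genes, a count that fell to 44 without the D4 library of experiment 2 and rose to 1149 without its D7 library. Each value below is an extra log2 difference at D10, experiment 2 minus experiment 1, beyond the mean of D0, D4 and D7.

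Upward, the named genes were MMP3 (5.15), IL13RA2 (4.95), FER1L6 (4.38), SERPINB2 (4.09), IL11 (3.96), GDF15 (3.76), TNFAIP6 (3.76), CXCL8 (2.62), IL6 (2.605), NRG1 (2.595), DDIT4 (2.59), TRIB3 (2.425), TNFAIP3 (2.08), PHGDH (1.88) and INHBA (1.68). IL24 passed the same test, but it is given as counts only, 0, 1, 4 and 32 in experiment 1 and 0, 1, 5 and 981 in experiment 2, since its mean before D10 was under the floor of 3 counts in both. The fitted value of IL13RA2 depends on the prior count, since it had few counts at D0.

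Downward, they were FOSB (−1.38), PARP9 (−1.47), COL3A1 (−2.19), FOS (−2.20), MT-CO1 (−2.28), COL1A1 (−2.63), MKI67 (−2.76), CDH6 (−3.00), WISP1 (−3.01), PARM1 (−3.03), ITGBL1 (−3.12), ANGPTL4 (−3.41), PDK4 (−3.63), ITGA8 (−4.16) and SLC14A1 (−4.70). Of these 31 genes, IL24 included, 11 were called in every alternative run for them, namely MMP3, IL13RA2, IL11, GDF15, IL6, NRG1, DDIT4, PHGDH, INHBA, ITGBL1 and WISP1. In the same D10 library of experiment 2 the mitochondrially encoded genes made up 0.906% of the counts, against 1.81% to 3.22% in the other 7, and the part of this in the values above was not tested.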

How the results depend on the processing

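The number of genes that differed between the experiments was 2035 at an adjusted p under 0.01 and 897 with a 2-fold limit added, and 2121 to 5602 with 1 library left out. The direction of the named genes held except with the GC and length offsets, where LIFR (−0.14) and LUM (−0.0089) reversed. Of 100 named genes called between the experiments 52 were called in every alternative, and without the day block 36 of them lost their call. The extra difference at D10 gave 861 genes with no filter, 146 at an adjusted p under 0.01, 44 to 1149 with 1 library left out and 661 with the offsets, which for this count and those below were chosen after seeing the data. Between D10 and D0, where the experiments form the pairing, the replicate block gave 688 genes in place of 40, DESeq2 390, no filter 371, a minimum of 10 counts in every library 20, and 1 library left out 0 to 155. At least 2-fold differences on all days numbered 157 with that minimum, 922 at 1.5-fold, 12 at 4-fold, 149 with GC and length adjusted and 289 to 372 with 1 day left out. The SD of the D10 change was 0.655 in experiment 1 with a prior count of 0.5, and 0.492 and 0.654 in experiments 1 and 2 with the minimum of 10. The relation of baseline and D10 response was −0.204 with D4 alone, −0.0523 with D7 alone, −0.201 with the minimum and −0.0611 with GC and length adjusted. The cause of these changes was not tested, apart from the fewer genes or libraries that an alternative left. With 1 library per day and experiment, an extra difference cannot be separated from the library that carries it.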
